A study of Mus musculus with 20 samples.

Results

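The genes described here encode the core enzymes of polyamine metabolism and the proteins that control the first of them: Odc1, Srm, Sms, Amd1, Sat1, Smox, Oaz1 and Azin1. They were chosen by gene symbol from the count tables with earlier results of the same counts in view. The measured values that put them forward are not recorded and the rule has no threshold, so every difference below is a description, and an adjusted p only sets its size against the spread between libraries. Of the 8 genes, 7 were measured among 16784 genes in mesenteric lymph nodes (mLN) and among 16740 genes in spleen and peripheral lymph nodes (pLNs), and Amd1, which makes the aminopropyl donor of the pathway, was not analysed here. All 7 had reads in every library and entered every test.

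The data are RNA-seq libraries of sorted T cells from C57BL/6 mice aged 14 weeks. CD4+Foxp3+ Treg cells were sorted as CD4+YFP+ cells and CD4+Foxp3- T cells as CD4+YFP- cells, in 3 libraries per group from mLN (12 in all) and in 2 per group from pooled spleen and pLNs (8 in all). Both genotypes carried the Foxp3-Cre allele, a YFP-Cre fusion under the control of the Foxp3 gene. WT mice carried it alone, and Tet2/3 DKO mice were Tet2/3 fl/fl in addition, so that both genes are deleted where Foxp3 is or was expressed. The CD4+Foxp3- T cells of the Tet2/3 DKO mice were mixed in this respect: the study describes former Treg cells that had lost Foxp3 among them, and less Tet2 and Tet3 mRNA from the deleted exons. The Tet2/3 DKO mice of spleen and pLNs were littermates that differed in the severity of splenomegaly, and the labels used here do not tell which library came from which. Levels are counts per 1000000 assigned reads (CPM) after scaling by trimmed mean of M-values (TMM). A gene was called when the adjusted p of edgeR's quasi-likelihood test was at most 0.05 and the fold change at least 1.5. The tissues were deposited as separate tables and were fitted separately.

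Polyamines (putrescine, spermidine and spermine) are small cations that bind nucleic acids and are needed for cell growth. Ornithine decarboxylase, encoded by Odc1, makes putrescine from ornithine and is the committed step. Spermidine synthase (Srm) and spermine synthase (Sms) then add aminopropyl groups taken from decarboxylated S-adenosylmethionine. Spermidine also gives the aminobutyl group by which a lysine of the translation factor eIF5A is turned into hypusine. Activated T cells are known to raise polyamine synthesis under the control of Myc, and the balance of the pathway has been tied to the fate of CD4+ T cell subsets.

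The 250 bases before the gene start are shown for Odc1, the gene with the largest difference between genotypes in mLN, and for Smox. In spleen and pLNs Smox was the only one of these genes called, and that call was between sorted populations within the Tet2/3 DKO genotype. None was called between genotypes there. TET enzymes oxidise methylated cytosines in CG dinucleotides, so each CG is in capitals. The sequences are RefSeq's on GRCm38.p6, which differs from the build used for the counts, and 6 of the 8 genes matched a promoter there. No methylation was measured in these libraries, and the letters say nothing of whether a CG is methylated.
Odc1, chr12:17544623-17544872, plus strand: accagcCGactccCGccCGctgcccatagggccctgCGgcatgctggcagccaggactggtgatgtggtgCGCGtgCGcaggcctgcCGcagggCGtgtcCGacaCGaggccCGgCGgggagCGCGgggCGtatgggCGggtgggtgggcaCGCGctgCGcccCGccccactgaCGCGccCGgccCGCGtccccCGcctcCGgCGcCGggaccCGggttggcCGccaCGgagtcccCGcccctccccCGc
Smox, chr2:131491612-131491861, plus strand: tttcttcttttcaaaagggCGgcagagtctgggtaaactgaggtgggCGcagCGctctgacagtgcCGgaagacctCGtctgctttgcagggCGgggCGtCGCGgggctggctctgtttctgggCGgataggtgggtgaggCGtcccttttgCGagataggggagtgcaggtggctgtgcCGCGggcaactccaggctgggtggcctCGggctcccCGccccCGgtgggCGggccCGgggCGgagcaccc
The Odc1 stretch holds 35 CG dinucleotides, a number reached by 2.97% of 32851 promoters of this length, whose median was 6. The Smox stretch holds 20, reached by 17.9%. Among the other matched genes the 2 Sms starts hold 32 (reached by 4.58%) and 7, Amd1 and Oaz1 19 each and Sat1 15. The E-box letters CACGTG, which read the same on both strands and are a form that Myc can bind, occur in neither stretch and in 6.02% of all promoters. Among the matched genes they occurred only in 1 of the 2 Sms starts, 196 bases before it.

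Library depth was 9998478 to 15449158 assigned reads in mLN and 13525932 to 15253141 in spleen and pLNs, and 3 reads correspond to 0.172 to 0.299 CPM. Foxp3 separated the sorted populations, at 152.5 to 418.9 CPM in Treg cells and 0.211 to 2.75 CPM in CD4+Foxp3- T cells. Tet2 (1.11 to 12.8 CPM) and Tet3 (30.6 to 136 CPM) had reads in every group, and their counts include exons outside the deleted part, so they do not check the genotype. Some Tet2/3 DKO libraries stood apart by plasma cell markers. The 4 measured markers summed to 431.2 CPM in mLN Tet2/3 DKO Treg library 2 and to 492.6 CPM in Tet2/3 DKO CD4+Foxp3- library 2, against 2.56 to 49.9 CPM in the other 10 mLN libraries. In spleen and pLNs the sums were 93.2 and 125.9 CPM in the Tet2/3 DKO libraries numbered 1, 19.3 and 26.4 CPM in those numbered 2 and 4.26 to 8.22 CPM in WT. Values without the libraries numbered 2 in mLN and 1 in spleen and pLNs, an alternative chosen after the marker values were seen, are given beside differences below. The libraries kept can still differ by genotype. In mLN CD4+Foxp3- T cells they had 12.7 and 49.9 CPM in Tet2/3 DKO against 3.65 to 9.96 CPM in WT. Other marker sums also separated by genotype, among them the following. In mLN Treg cells 6 Treg markers summed to 1946 to 2111 CPM in WT and 1508 to 1704 CPM in Tet2/3 DKO, and 2 of the 6 were called lower. There 3 NK cell markers went from 9.54 to 11.4 CPM in WT to 74.8 to 162 CPM in Tet2/3 DKO, 2 CD8 T cell markers from 16.03 to 20.8 CPM to 2.95 to 3.94 CPM, and 8 myeloid markers from 60.2 to 75.1 CPM to 84.1 to 119.8 CPM. In mLN CD4+Foxp3- T cells the NK cell sum went from 31.9 to 41.8 CPM to 53.8 to 140.9 CPM, the CD8 T cell sum from 21.5 to 23.3 CPM to 5.0 to 10.1 CPM, and a sum of 6 B cell markers from 5.29 to 6.68 CPM to 8.78 to 20.5 CPM. In Treg cells of spleen and pLNs the NK cell sum went from 8.77 to 9.99 CPM to 91.2 to 124.6 CPM and the CD8 T cell sum from 17.2 and 19.7 CPM to 6.70 and 9.42 CPM. In CD4+Foxp3- T cells there the CD8 T cell sum went from 14.8 and 17.8 CPM to 5.08 and 11.3 CPM, and the myeloid sum, of 10 markers there, from 78.9 and 81.0 CPM to 96.2 and 114.5 CPM, and the B cell sum from 13.2 and 16.3 CPM to 17.96 and 23.6 CPM. Xist, the RNA of the inactive X chromosome in female cells, was at 41.4 and 31.0 CPM in WT against 125.9 and 57.6 CPM in Tet2/3 DKO Treg cells of spleen and pLNs (edgeR adjusted p = 0.0448). In CD4+Foxp3- T cells the Treg markers summed to 139.8 to 145.1 CPM in mLN WT and 183.5 to 351.3 CPM in Tet2/3 DKO, and in spleen and pLNs to 202.1 and 225.1 CPM in WT, 229.2 CPM in Tet2/3 DKO library 2 and 708.1 CPM in library 1, whereas Foxp3 itself stayed at or under 2.75 CPM in all of them. The part of these markers in any result below was not tested. In sorted bulk RNA, a change in how many cells express a gene and a change in RNA per cell cannot be told apart.

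Reads were 50 bases long and at most 1 alignment per read was kept, so near-identical copies elsewhere in the genome can share reads with a gene. Of all 50-base windows in the longest annotated Odc1 transcript, 55.1% also occur exactly elsewhere in the mm9 assembly, as do 82.2% for Oaz1, 41.7% for Sms, 41% for Sat1 and 4.65% for Srm. No window of Azin1 or Smox does. The same share was 90.2% for Amd1. The counts of Odc1, Oaz1, Sms and Sat1 are uncertain in level for this reason. Every library was counted the same way, and whether copies take a different share of reads in different groups was not tested.

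**Figure D1:**
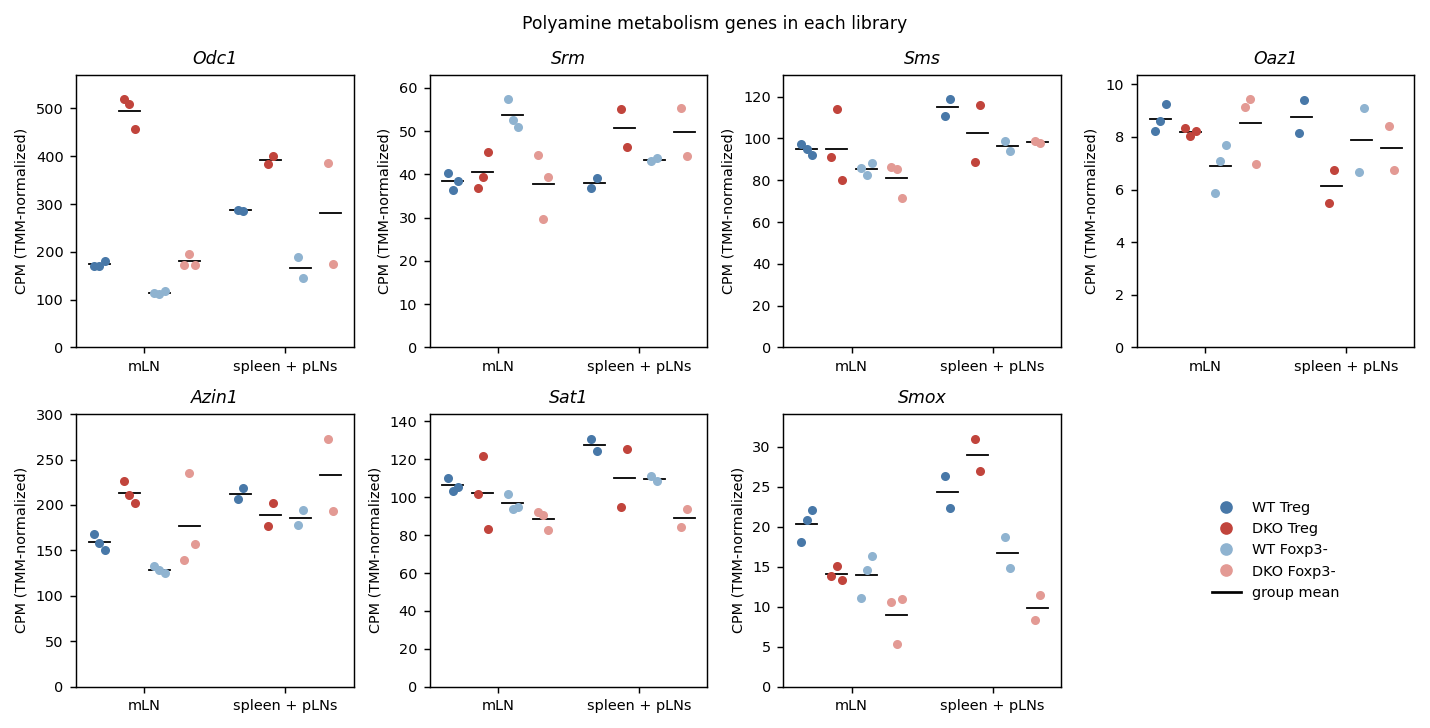
CPM after TMM scaling for the 7 measured polyamine genes, 1 point per library, in the 4 groups of mLN and of spleen and pLNs, with a bar at the group mean. Odc1 in mLN Tet2/3 DKO Treg cells lies at 458.1 to 519.1 CPM, apart from the other 3 mLN groups at 111.7 to 195.3 CPM, whereas Sms and Sat1 overlap between genotypes in mLN Treg cells.

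To ask how loss of Tet2 and Tet3 relates to polyamine genes in Treg cells, Tet2/3 DKO and WT Treg cells from mLN were compared first. Odc1 rose, and it was the only one of the 7 genes called, where 11.9% of all 16784 genes, 2001 in number, were called in this comparison (1325 to 2310 when libraries were left out, with the lowest number without WT Treg library 2). The other 6 genes kept log2 fold changes between -0.53 and 0.42, and none passed the test. The median log2 fold change of the 7 genes was 0.00388, next to 0.00453 over all genes. The summed level of the 7 genes went from 593.7 to 612.9 CPM in WT to 890.9 to 1019 CPM in Tet2/3 DKO Treg cells, a gap of which Odc1 held the largest part.

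Odc1 (mm9 chr12:17551679-17558308, plus strand) encodes the committed enzyme. WT mLN Treg libraries had 169.8, 170.9 and 180.3 CPM and Tet2/3 DKO libraries 519.1, 509.9 and 458.1 CPM. All 3 Tet2/3 DKO libraries lay above all 3 WT libraries, with means of 495.7 ± 32.9 and 173.7 ± 5.77 CPM (SD, n = 3). The fold change was 2.85 (log2 1.51, SE 0.08, edgeR adjusted p = 1.13e-06). Leaving out any library gave log2 fold changes of 1.48 to 1.57. Without the Tet2/3 DKO libraries that carried plasma cell markers the value was 1.496 (adjusted p = 1.22e-09).

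The aminopropyl transferases downstream of Odc1 were not called. Srm (mm9 chr4:147965612-147969102, plus strand) had 40.3, 36.4 and 38.6 CPM in WT against 36.9, 39.3 and 45.3 CPM in Tet2/3 DKO Treg cells, and the groups overlapped (log2 0.08, SE 0.13, adjusted p = 0.733). Sms (mm9 chrX:153881787-153930219, minus strand) had 97.6, 95.0 and 92.3 CPM in WT compared with 91.0, 114.3 and 80.2 CPM in Tet2/3 DKO Treg cells. The Tet2/3 DKO libraries of Sms lay on both sides of the WT libraries, with a log2 fold change of 0.00 (adjusted p = 1), and its sign depended on which library was left out (-0.15 to 0.11).

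The proteins that control ornithine decarboxylase were next. Antizyme, encoded by Oaz1, binds the enzyme and sends it to the proteasome, and the antizyme inhibitor Azin1, a relative of ornithine decarboxylase without its activity, ties antizyme up. Azin1 (mm9 chr15:38417185-38449021, minus strand) had 168.6, 158.6 and 150.6 CPM in WT against 226.7, 210.7 and 202.4 CPM in Tet2/3 DKO Treg cells. All 3 Tet2/3 DKO libraries were above all 3 WT libraries, but the difference was under the 1.5-fold minimum and just missed the adjusted threshold (log2 0.42, SE 0.15, adjusted p = 0.062). Without the libraries that carried plasma cell markers the value was 0.43 (adjusted p = 0.000672), still under 1.5-fold. Oaz1 (mm9 chr10:80289401-80292035, plus strand) was at 8.22, 8.60 and 9.25 CPM in WT compared with 8.33, 8.05 and 8.22 CPM in Tet2/3 DKO Treg cells, which overlapped (log2 -0.08, adjusted p = 0.778). Antizyme is made through a ribosomal frameshift that polyamines promote, a layer that RNA counts do not show.

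The catabolic arm is led by Sat1, which acetylates spermidine and spermine for export or oxidation, and by Smox, which oxidises spermine back to spermidine. Sat1 (mm9 chrX:151647675-151650992, minus strand) had 110.4, 103.3 and 105.2 CPM in WT against 101.8, 122.0 and 83.3 CPM in Tet2/3 DKO Treg cells. The Tet2/3 DKO libraries of Sat1 spread around the WT libraries (log2 -0.05, adjusted p = 0.791, and -0.19 without the libraries that carried plasma cell markers). Smox (mm9 chr2:131317232-131351658, plus strand) had 18.1, 20.8 and 22.1 CPM in WT compared with 13.8, 15.1 and 13.3 CPM in Tet2/3 DKO Treg cells. Every Tet2/3 DKO library of Smox was below every WT library, without passing the test (log2 -0.53, SE 0.22, adjusted p = 0.118). Without the libraries that carried plasma cell markers it was -0.58 (adjusted p = 0.0106), also under 1.5-fold.

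CD4+Foxp3- T cells from the same lymph nodes, among which deletion is partial, showed a smaller difference in Odc1. Odc1 was again the only one of the 7 genes called, where 3.43% of all genes, 575 in number, were called in this comparison (57 to 1453 when libraries were left out). WT CD4+Foxp3- libraries had 114.8, 111.7 and 117.6 CPM and Tet2/3 DKO libraries 171.5, 195.3 and 173.1 CPM, with no overlap. The fold change rested just above the minimum (log2 0.65, SE 0.08, adjusted p = 0.00302), and without the libraries that carried plasma cell markers it was 0.58 (adjusted p = 0.000266), which is below 1.5-fold, so that none of the 7 genes was called. Fitted on these 2 groups alone, the same comparison called none of the 7 and 2 genes in all.

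Of the 7 genes, 3 lay lower in every Tet2/3 DKO CD4+Foxp3- library than in every WT library, as did 9.74% of all genes, and none of them passed the test. Srm had 57.4, 52.7 and 51.1 CPM in WT against 44.5, 29.7 and 39.4 CPM in Tet2/3 DKO (log2 -0.51, SE 0.13, adjusted p = 0.0505). Library 2, the one with plasma cell markers, held the lowest Srm value. Smox had 11.2, 14.6 and 16.4 CPM in WT compared with 10.6, 5.35 and 10.96 CPM in Tet2/3 DKO (log2 -0.65, SE 0.23, adjusted p = 0.145). The same library was again the lowest, and without the libraries that carried plasma cell markers the difference of Smox was -0.38 (adjusted p = 0.27) and that of Srm -0.36 (adjusted p = 0.0584). Sat1 was the other gene of the 3, with a difference of -0.13 (adjusted p = 0.59).

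Azin1 in CD4+Foxp3- T cells shows what a single library can do. WT libraries had 132.9, 128.8 and 125.0 CPM and Tet2/3 DKO libraries 139.5, 235.0 and 157.4 CPM. All Tet2/3 DKO libraries were higher, most of all library 2, and the log2 fold change was 0.46 (SE 0.15, adjusted p = 0.107). It was 0.20 without the libraries that carried plasma cell markers. Sms (71.6 to 88.3 CPM) and Oaz1 (5.87 to 9.43 CPM) overlapped between the genotypes, with log2 fold changes of -0.08 (adjusted p = 0.777) and 0.31 (adjusted p = 0.346).

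The genotype difference of Odc1 was larger in Treg cells than in CD4+Foxp3- T cells of mLN. The interaction of genotype and cell type was 0.86 on the log2 scale (SE 0.11, edgeR adjusted p = 0.00735), where 0.280% of all genes, 47 in number, passed this test (9 to 538 when libraries were left out, 409 by DESeq2). Without the libraries that carried plasma cell markers it was 0.92 (adjusted p = 1.85e-04). None of the other 6 genes passed it. Srm came nearest, with a difference in the genotype effect of 0.58 (SE 0.19, adjusted p = 0.23).

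**Figure D2:**
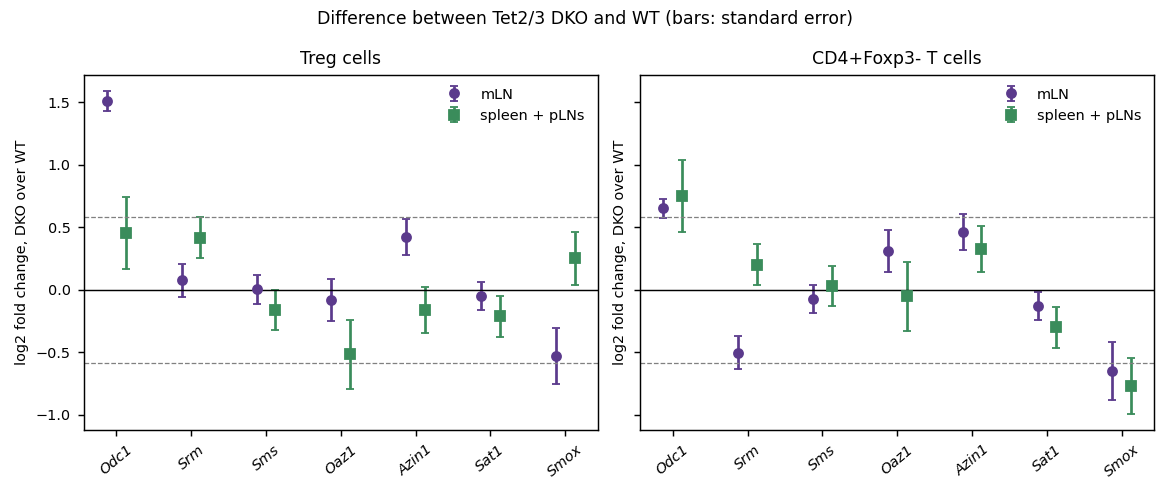
Log2 fold change of Tet2/3 DKO over WT for the 7 genes in Treg cells and in CD4+Foxp3- T cells, with circles for mLN, squares for spleen and pLNs, bars of 1 SE from the edgeR fit and dashed lines at a fold change of 1.5. Odc1 in mLN stands above the upper line at 1.51 in Treg cells and 0.65 in CD4+Foxp3- T cells, and Azin1 and Smox lie on opposite sides of 0 in Treg cells of the tissues.

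Between the sorted populations, WT Treg cells had more Odc1 than WT CD4+Foxp3- T cells in mLN (log2 0.60, SE 0.08, adjusted p = 2.47e-04). Odc1 was the only one of the 7 genes called, where 10.1% of all genes, 1687 in number, were called (1149 to 1263 when libraries were left out, 2544 when the 2 groups were fitted alone). The fold of 1.51 is close to the minimum and fell below it when WT Treg library 3 or WT CD4+Foxp3- library 2 was left out, or when these 2 groups were fitted alone. Of the 7 genes, 6 were higher in all WT Treg libraries than in all WT CD4+Foxp3- libraries, as were 22.3% of all genes. Srm was the exception, lower in all 3, with a log2 difference of -0.48 (SE 0.13, adjusted p = 0.0243) that is under 1.5-fold.

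In Tet2/3 DKO mice the gap between the populations was wider for Odc1, at 1.46 on the log2 scale (SE 0.08, adjusted p = 3e-07). Again only Odc1 of the 7 genes was called, where 11.2% of all genes, 1885 in number, were (1520 to 2934 when libraries were left out, with the highest number without Tet2/3 DKO CD4+Foxp3- library 2, and 906 when the 2 groups were fitted alone). Smox was also higher in every Tet2/3 DKO Treg library, as were 15.1% of all genes (log2 0.66, SE 0.23, adjusted p = 0.0669). Treg and CD4+Foxp3- libraries of the same number and genotype deviated together, and with the number within genotype as a replicate block 2 genes were called, Smox among them (0.70, adjusted p = 0.0439). The difference of Smox was 0.32 without the libraries numbered 2. The other 5 genes overlapped between Tet2/3 DKO Treg and CD4+Foxp3- libraries, and without the libraries numbered 2 Azin1 differed by 0.52 (adjusted p = 0.000292), under 1.5-fold.

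The same comparisons in spleen and pLNs rested on 2 libraries per group. When a library is left out there, a lone library remains in its group and the spread is taken from the other groups. Calls from such fits therefore measure no spread within that group. None of the 7 genes was called between Tet2/3 DKO and WT Treg cells, where 1.74% of 16357 genes tested were called, 285 in number (4 to 1696 when libraries were left out), and 3345 genes had an unadjusted p under 0.05. Odc1 had 288.3 and 285.0 CPM in WT against 383.2 and 401.0 CPM in Tet2/3 DKO Treg cells. Both Tet2/3 DKO libraries were above both WT libraries, by a log2 difference of 0.45 (SE 0.29, adjusted p = 0.407). Without the Tet2/3 DKO libraries numbered 1 the difference was 0.49, which is under 1.5-fold and rests on a lone Tet2/3 DKO library. In WT Treg cells the Odc1 level stood higher here than in mLN, but the tables were normalised apart and this was not tested.

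Srm followed the same direction in Treg cells of spleen and pLNs, with 36.8 and 39.2 CPM in WT against 55.1 and 46.3 CPM in Tet2/3 DKO (log2 0.42, SE 0.16, adjusted p = 0.178). Smox had 26.4 and 22.4 CPM in WT against 31.0 and 27.0 CPM in Tet2/3 DKO (log2 0.25, SE 0.21, adjusted p = 0.558), so both Tet2/3 DKO libraries were higher, the opposite side from mLN. Azin1 had 206.1 and 218.3 CPM in WT against 176.5 and 202.3 CPM in Tet2/3 DKO (log2 -0.16, SE 0.18, adjusted p = 0.683), again on the other side from mLN. Oaz1 was lower in both Tet2/3 DKO libraries, at 5.50 and 6.76 CPM against 8.15 and 9.40 CPM (log2 -0.52, SE 0.28, adjusted p = 0.314). Sms and Sat1 overlapped between genotypes, with log2 fold changes of -0.17 (adjusted p = 0.618) and -0.21 (adjusted p = 0.516). Without the Tet2/3 DKO libraries numbered 1 the difference was 0.15 for Smox, -0.067 for Azin1 and -0.021 for Sat1, each nearer to 0, and 0.29 for Srm, under 1.5-fold.

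In CD4+Foxp3- T cells of spleen and pLNs none of the 7 genes was called, where 0.819% of all genes, 134 in number, were (1 to 2751 when libraries were left out), and 2102 genes had an unadjusted p under 0.05. Odc1 was split by library. The WT libraries had 188.8 and 144.7 CPM, and the Tet2/3 DKO libraries 386.7 CPM in library 1 and 173.9 CPM in library 2, which lay between the WT values. The log2 fold change was 0.75 (SE 0.29, adjusted p = 0.278). Without the Tet2/3 DKO libraries numbered 1, which carried plasma cell markers and of which the CD4+Foxp3- library also had the high Treg marker sum, it was 0.06. Leaving out library 2 instead gave 1.21.

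Azin1 was also highest in Tet2/3 DKO CD4+Foxp3- library 1, at 273.0 CPM against 192.9 CPM in library 2 and 177.9 and 194.0 CPM in WT. Its log2 fold change was 0.33, and 0.058 without the libraries numbered 1. Smox was lower in both Tet2/3 DKO libraries, at 8.29 and 11.4 CPM against 18.8 and 14.8 CPM (log2 -0.77, SE 0.22, adjusted p = 0.13). Without the libraries numbered 1 the difference of Smox was -0.55, under 1.5-fold. Sat1 was lower in both as well, at 84.4 and 93.7 CPM against 111.3 and 108.3 CPM (log2 -0.30, adjusted p = 0.486). Srm was higher in both Tet2/3 DKO libraries, at 55.4 and 44.3 CPM against 43.1 and 43.7 CPM (log2 0.20, adjusted p = 0.698), and without the libraries numbered 1 the difference was 0.034.

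Between populations of spleen and pLNs, none of the 7 genes was called in WT, where 4.0% of all genes, 654 in number, were (144 to 198 when libraries were left out, 360 with the number within genotype as a replicate block and 2060 when the 2 groups were fitted alone) and 2243 had an unadjusted p under 0.05. Of the 7 genes, 5 were higher in both WT Treg libraries, as were 28.1% of all genes, with Odc1 at a log2 difference of 0.78 (adjusted p = 0.209), and Srm was again lower in both. Fitted on these 2 groups alone, Odc1 was called. In Tet2/3 DKO mice 1 of the 7 genes was called, Smox, where 3.77% of all genes, 617 in number, were (185 to 2091 when libraries were left out, 348 with the block and 190 when the 2 groups were fitted alone). Its 31.0 and 27.0 CPM in Tet2/3 DKO Treg cells stood against 8.29 and 11.4 CPM in Tet2/3 DKO CD4+Foxp3- T cells, with no overlap (log2 1.56, SE 0.22, adjusted p = 0.00171). Without the libraries numbered 1 the difference of Smox was 1.23 (adjusted p = 9.91e-07) and 2 genes were called, since Odc1 then differed by 1.19 (adjusted p = 2.92e-11). The interaction of genotype and cell type was passed by 0.00611% of all genes, a single gene that is none of the 7, and 905 genes had an unadjusted p under 0.05. The interaction of Smox was 1.02 (SE 0.31, adjusted p = 0.858; 0.70 without the libraries numbered 1) and that of Odc1 -0.30 (adjusted p = 1), and the latter changed sign to 0.42 without the libraries numbered 1.

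Levels of different genes were compared on the deposited TPM values, a measure of transcript abundance that allows for transcript length. The share of 50-base windows that also occur elsewhere in the genome differs between the genes. It was 82.2% for Oaz1, 55.1% for Odc1 and 41% for Sat1 but 0% for Azin1 and Smox. The order of the genes and the ratios between them are therefore uncertain. In mLN WT Treg cells Sat1 led with 151.7 ± 2.97 TPM, followed by Odc1 with 124.5 ± 7.66 TPM (SD, n = 3). Azin1 (56.1 ± 1.46 TPM), Srm (52.8 ± 2.16 TPM) and Sms (51.3 ± 0.366 TPM) came next, and Srm and Sms changed places between libraries. Smox (16.5 ± 2.16 TPM) and Oaz1 (14.8 ± 1.32 TPM) were lowest and within their spread of each other. In mLN Tet2/3 DKO Treg cells Odc1 was at 401.3 ± 34.5 TPM, above Sat1 at 164.8 ± 29.2 TPM in all 3 libraries. Odc1 also led in both Tet2/3 DKO Treg libraries of spleen and pLNs (314.2 and 256.5 TPM), and of the 5 WT Treg libraries in 1 only, from spleen and pLNs.

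The ratio of Odc1 to Azin1 on the TPM scale was 2.05, 2.19 and 2.43 in mLN WT Treg cells and 4.66, 4.92 and 4.60 in Tet2/3 DKO Treg cells. It was 2.76 and 2.58 against 4.29 and 3.91 in spleen and pLNs. In both tissues the Treg libraries of the genotypes did not overlap in this ratio. In mLN CD4+Foxp3- T cells they did not separate, with 1.76, 1.76 and 1.91 in WT and 2.50, 1.69 and 2.24 in Tet2/3 DKO, nor did they in spleen and pLNs, with 2.09 and 1.47 in WT against 2.80 and 1.78 in Tet2/3 DKO.

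**Figure D3:**
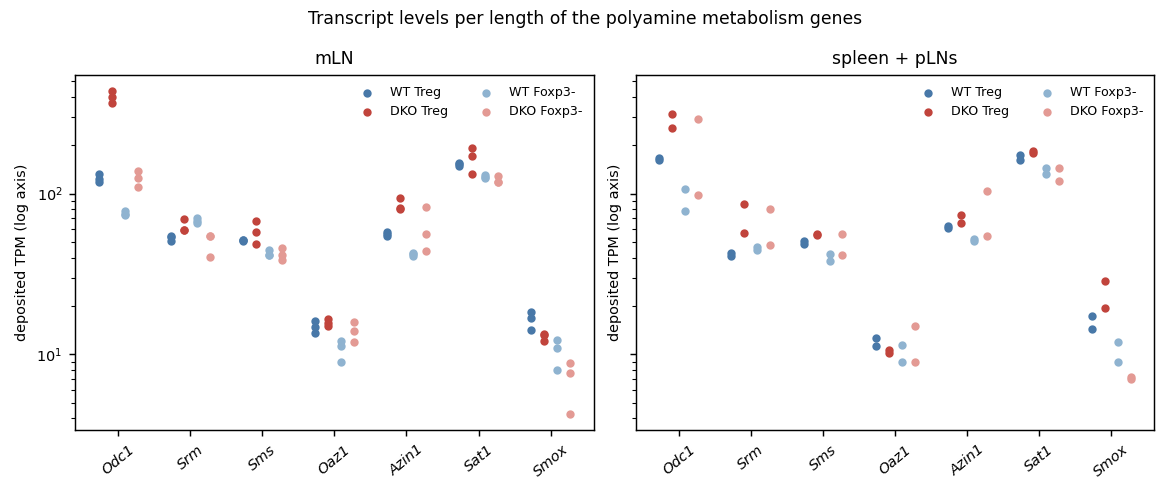
Deposited TPM of the 7 genes on a log axis, 1 point per library and group, in mLN and in spleen and pLNs. In mLN Odc1 moves from 117.6 to 132.7 TPM in WT Treg cells, under Sat1, to 367.4 to 436.4 TPM in Tet2/3 DKO Treg cells, above it, while Oaz1 and Smox stay below 19 TPM.

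On the TPM scale the typical well-expressed gene stood higher in Tet2/3 DKO than in WT. How far each gene moved between CPM and TPM was not summarised over all genes. The median log2 ratio of Tet2/3 DKO to WT was 0.23 in Treg and 0.203 in CD4+Foxp3- T cells of spleen and pLNs (6753 genes that averaged 10 TPM or more), and 0.134 and 0.0561 in mLN (7448 genes). Against these medians, Odc1 in mLN Treg cells was at 1.69 and Azin1 at 0.60, whereas Smox stayed below WT at -0.36. In Treg cells of spleen and pLNs Azin1 changed sign to 0.17, as did Sms (0.15) and Sat1 (0.11), all under the median of 0.23. Odc1 (0.79), Srm (0.77) and Smox (0.60) lay above this median, against 0.45, 0.42 and 0.25 on CPM. Oaz1 stayed below WT at -0.19. Sat1 (0.12) and Oaz1 (0.09) in mLN Treg cells also changed sign, both under the median of 0.134 there. Oaz1 (0.23) in CD4+Foxp3- T cells of spleen and pLNs changed sign too, but lay above the median of 0.203.

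Genes of cell division were compared with Odc1. Of 20 proliferation genes, 18 were called higher in mLN Tet2/3 DKO Treg cells (median log2 1.28), where 11.9% of all genes were called. In mLN CD4+Foxp3- T cells 11 were called higher (0.756), against 3.43% of all genes. In Treg cells of spleen and pLNs 1 was called, Mki67 (median of the list 0.725), against 1.74% of all genes. In CD4+Foxp3- T cells there none was called (0.991), against 0.819% of all genes, and 5 were called by DESeq2. Every gene of the list was nonetheless higher in the latter comparison, by 0.179 or more. The 11 calls in mLN CD4+Foxp3- T cells ran from 0 to 13 when a library was left out, with 0 without WT library 1 or 2, and were 0 when the 2 groups were fitted alone. The interaction of genotype and cell type in mLN was passed by 2 of the 20, Mcm3 and Mcm5 (0 to 4 when libraries were left out, 6 by DESeq2), and by 0.280% of all genes. Summed over the list, mLN WT Treg libraries had 1277, 1362 and 1411 CPM and Tet2/3 DKO Treg libraries 2237, 2797 and 2501 CPM. Odc1 per 1000 CPM of these genes was higher in Tet2/3 DKO Treg cells, at 232, 182 and 183 CPM against 133, 125 and 128 CPM. The sums of mLN CD4+Foxp3- T cells were 1024, 1034 and 1010 CPM in WT against 1184, 1315 and 1345 CPM in Tet2/3 DKO, which places the latter at the level of WT Treg cells for Odc1 and for the list alike. Odc1 per 1000 CPM of the list was 112, 108 and 116 CPM in these WT libraries and 145, 149 and 129 CPM in the Tet2/3 DKO libraries, without overlap. The part of proliferation in the Odc1 difference was not tested.

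In spleen and pLNs the list summed to 1264 and 1221 CPM in WT Treg cells against 1821 and 1647 CPM in Tet2/3 DKO Treg cells, and Odc1 per 1000 CPM of it overlapped between genotypes, at 228 and 233 against 210 and 243 CPM. Tet2/3 DKO CD4+Foxp3- library 1, the library with the high Odc1 value, had a sum of 2072 CPM, against 1212 CPM in library 2 and 1077 and 1094 CPM in WT. The number of proliferation genes called in spleen and pLNs was not stable either: 17 were called in CD4+Foxp3- T cells without Tet2/3 DKO library 2, and 12 in Treg cells when the 2 groups were fitted alone.

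**Figure D4:**
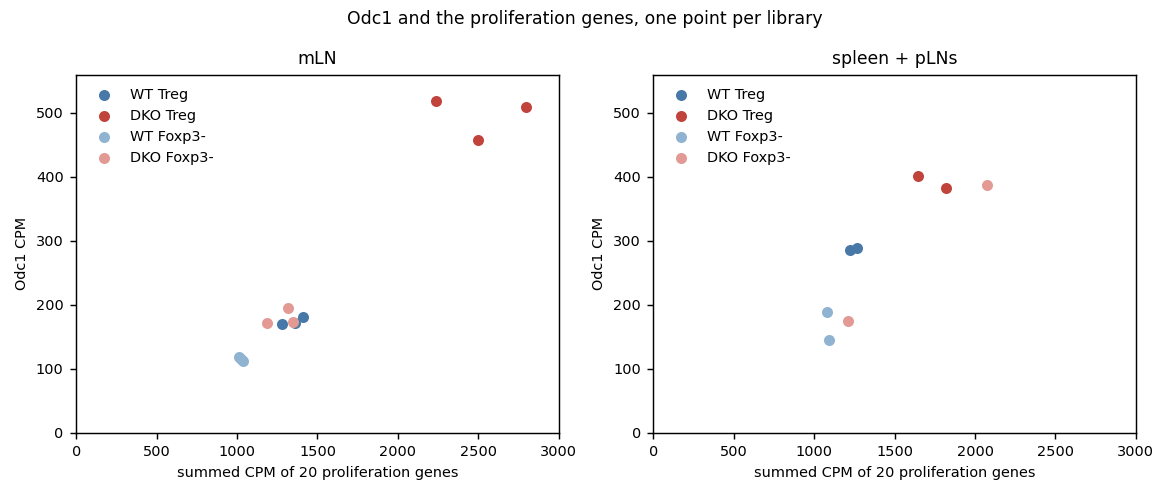
Odc1 CPM of each library against the summed CPM of 20 proliferation genes, coloured by group, in mLN and in spleen and pLNs. The 3 mLN Tet2/3 DKO Treg libraries lie at sums of 2237 to 2797 CPM and Odc1 of 458.1 to 519.1 CPM, and Tet2/3 DKO CD4+Foxp3- library 1 of spleen and pLNs lies at 2072 and 386.7 CPM.

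The genes whose pattern was nearest to Odc1 were found by the root mean square difference in log2 CPM after centring each gene. Over the 12 mLN libraries and 8410 genes they were Pole (0.178), which encodes the catalytic subunit of a replicative DNA polymerase, Hmmr (0.203), Chaf1a (0.219), a subunit of the chromatin assembly factor that acts at replication forks, Ect2 (0.225), which is needed for cytokinesis, and Hells (0.227). Pole averaged 21.1 CPM in WT Treg, 51.1 in Tet2/3 DKO Treg, 13.3 in WT CD4+Foxp3- and 18.2 in Tet2/3 DKO CD4+Foxp3- T cells. Genes had to average at least 10 CPM to be compared. Hmmr, Chaf1a and Ect2 averaged 24.5, 27.3 and 22.1 CPM in Tet2/3 DKO Treg cells but at most 9.84 CPM in any other group. They passed this minimum only through the group in which Odc1 was highest. On the TPM scale 3 of the 5 nearest genes were the same. Over the 8 libraries of spleen and pLNs and 8185 genes they were 1110051M20Rik (0.0669), Cdca7, Akr1e1, Kctd17 and Nr4a1, an early gene of T cell receptor signalling, and 3 of the 5 were the same on the TPM scale.

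The genes that feed, carry or use polyamines were counted as whole lists. Among 9 measured genes of ornithine and arginine supply, only Ass1, which makes argininosuccinate for arginine synthesis, was called between genotypes in mLN Treg cells. It fell from 258.0, 248.8 and 266.0 CPM in WT to 126.6, 196.7 and 185.7 CPM in Tet2/3 DKO Treg cells, without overlap (log2 -0.60, SE 0.13, adjusted p = 0.00592), a call lost without WT Treg library 3 or Tet2/3 DKO Treg library 1. None of this list was called between genotypes in CD4+Foxp3- T cells of mLN or among the 7 measured in spleen and pLNs. The interaction of genotype and cell type in mLN was passed by 1 gene of the list, Slc7a1, a carrier of arginine and other cationic amino acids, which is named here after its values were seen. Its genotype effect was larger by 0.67 on the log2 scale in Treg cells (SE 0.11, adjusted p = 0.025), at 0.15 against -0.52 in CD4+Foxp3- T cells, of which neither was called. The interaction of Slc7a1 was no longer passed without WT Treg library 2 or 3, Tet2/3 DKO Treg library 1 or any of the WT CD4+Foxp3- libraries.

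Of 6 transport genes, Slc22a2, an organic cation transporter, was called between genotypes in both mLN populations at low levels. It fell from 7.23, 7.44 and 6.10 CPM to 1.45, 0.216 and 2.52 CPM in Treg cells (log2 -2.32, SE 0.56, adjusted p = 0.0113). In CD4+Foxp3- T cells it went from 1.19, 1.35 and 1.20 CPM to 0.177, 0 and 0.177 CPM, which is 14, 20 and 12 reads against 2, 0 and 2 (adjusted p = 0.0425). This call was lost without any of the WT libraries or Tet2/3 DKO library 2 or 3, and when the 2 groups were fitted alone. Between genotypes, none of the 5 transport genes measured in spleen and pLNs was called. Among the other regulators and catabolic enzymes none was called between genotypes of 4 in mLN and 3 in spleen and pLNs. Paox, which oxidises acetylated polyamines, was at 10.4, 8.44 and 7.67 CPM in WT compared with 12.3, 13.8 and 11.9 CPM in Tet2/3 DKO Treg cells of mLN (log2 0.52, adjusted p = 0.0678). Oaz2, a second antizyme, overlapped between the genotypes (log2 0.27, adjusted p = 0.351).

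The hypusination genes use spermidine, and none of the 4 was called between genotypes in any of the 4 comparisons. Eif5a had 656.0, 642.3 and 648.2 CPM in WT against 644.0, 824.5 and 744.3 CPM in Tet2/3 DKO Treg cells of mLN (log2 0.19, adjusted p = 0.201). Dhps and Dohh, which carry out the modification, differed by 0.09 (adjusted p = 0.631) and 0.17 (adjusted p = 0.23). None of 7 genes of S-adenosylmethionine supply and methionine salvage was called between genotypes either, with Mtap, which clears the by-product of the aminopropyl transferases, at -0.03 (adjusted p = 0.85) and Mat2a at -0.12 (adjusted p = 0.342) in mLN Treg cells.

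Myc is a known activator of Odc1 transcription. In mLN Treg cells it had 74.4, 86.2 and 93.4 CPM in WT compared with 77.2, 75.0 and 100.4 CPM in Tet2/3 DKO, overlapping (log2 -0.01, adjusted p = 1). In Treg cells of spleen and pLNs it rose from 56.6 and 58.5 CPM to 115.1 and 93.6 CPM (log2 0.86, SE 0.17, adjusted p = 0.0274), where Odc1 was not called. This Myc call was lost without either WT Treg library or Tet2/3 DKO Treg library 1 and after filterByExpr. In mLN 1 of 11 genes of the Myc network was called in Treg cells, Mxd3, which rose from 2.71, 3.23 and 3.25 CPM to 4.97, 8.34 and 8.64 CPM (log2 1.25, SE 0.29, adjusted p = 0.00967). In spleen and pLNs 2 of 9 were called in Treg cells, Myc and Mxd4, the latter rising from 65.8 and 69.1 to 122.3 and 116.1 CPM (log2 0.82, SE 0.14, adjusted p = 0.0151), a call lost under the same settings. Mxd3 and Mxd4 encode repressors that compete with Myc for their shared partner. No gene of the network was called between genotypes in CD4+Foxp3- T cells of either tissue.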

How the data were processed

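The authors aligned 50-base single-end reads of stranded mRNA libraries to mm9 with TopHat2 2.1.1, which kept at most 1 alignment per read and up to 2 mismatches, and counted reads per RefSeq gene by strand with featureCounts of Subread 1.4.3-p1. Versions come from the submitters' processing notes. The deposited tables hold raw counts and, in separate tables, TPM computed by the authors, for which the method is not given in the sources used here. Counts were used as deposited for every test, and TPM only to compare levels between genes.

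The counts of each tissue were fitted in 1 model of 4 groups with edgeR 4.0.16 (R 4.3.3, limma 3.58.1): TMM scaling, genes with a total count of at least 1, glmQLFit, glmQLFTest and Benjamini-Hochberg adjustment over all genes tested. Interactions were called on the adjusted p alone. SEs were derived from the F statistic, and log2 CPM used a prior count of 2. The biological coefficient of variation was 17.7% in mLN and 21.6% in spleen and pLNs. The steps were tested on simulated counts. Alternatives were DESeq2 1.42.0, its size factors in edgeR, other filters, the 2 groups alone, replicate blocks and leaving out libraries. Counting error alone limits a value of 0 to under 3 reads.

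The members, lists and comparisons were chosen with earlier results of these data known. The text names all members, a fixed set of linked genes (part of it is not reported here), every other linked gene called between genotypes, and the 5 genes nearest to Odc1 among those with a mean of at least 10 CPM. The study calls the replicates biological and the labels give only their number, so p-values measure the spread between these libraries. In mLN, Treg and CD4+Foxp3- libraries of 1 genotype and number deviated together (r of 0.138 to 0.544 over 6 pairs, each above 0.1), so the numbers were taken to pair cell types within a genotype, a pairing read from the data and not from the labels. Across genotypes r was -0.153 to 0.234, a range that overlaps the one within a genotype, and libraries of unequal number were not compared. In spleen and pLNs, with 2 libraries per group, deviations of the libraries numbered 1 and 2 mirror each other. Pairs numbered 1 and 2 therefore share the same r and do not count apart. There r was 0.309 to 0.319 within a genotype and 0.206 to 0.305 across genotypes, so the numbers went together across genotypes too. Near-identical copies were counted with 50-base windows against the mm9 genome. Promoters were read from RefSeq. Figures were drawn with matplotlib 3.10.9.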

Additional observations from a re-analysis of the deposited data

Results flagged for a closer look

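The genotype difference of Odc1 was larger in Treg cells than in CD4+Foxp3- T cells of mLN, by 0.86 on the log2 scale in the edgeR interaction test. Another 3 genes took opposite sides in the tissues, and these differences between tissues were not tested. In mLN every Tet2/3 DKO library of such a gene lay on 1 side of every WT library, and in spleen and pLNs on the other. The share of all genes that take opposite sides in this way was not counted. It is therefore not known whether 3 is more than usual. Azin1 in Treg cells was at a log2 fold change of 0.42 in mLN and -0.16 in spleen and pLNs, and the latter changed sign on the TPM scale and was -0.067 without the Tet2/3 DKO libraries numbered 1. Smox in Treg cells was at -0.53 in mLN and 0.25 in spleen and pLNs, where it was 0.15 without those libraries. Srm in CD4+Foxp3- T cells was at -0.51 in mLN and 0.20 in spleen and pLNs, where it was 0.034 without them. None of these 6 values was called within its own tissue, and groups of 2 or 3 libraries are too small for the test of single outlying libraries.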

How the results depend on the processing

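Over 70 differences of the 7 genes, leaving out libraries gave 476 values, of which 432 kept direction and call, 3 lost the call, 8 gained it and 33 changed sign. Other settings gave 378 values, of which 372 kept both, 2 lost the call, 3 gained it and 1 changed sign, Sms in mLN Treg cells at -0.00445 with the number as a replicate block. Odc1 in mLN Treg cells was called throughout, at 1.51 to 1.52 under the other settings. In mLN, fitting only the 2 groups left 0 of the 7 genes called in CD4+Foxp3- T cells and 0 between WT populations, where dropping the fold minimum gave 2. Between Tet2/3 DKO mLN populations, DESeq2 and the replicate block within genotype each gave 2. Between WT populations of spleen and pLNs, the 2 groups alone gave 1. The block changed no other call of the 7 genes. Leaving out libraries moved the number called in mLN from 0 to 3 in CD4+Foxp3- T cells (3 without Tet2/3 DKO library 1), from 0 to 1 between WT populations and from 1 to 2 between Tet2/3 DKO populations. In spleen and pLNs it moved from 0 to 2 in CD4+Foxp3- T cells (2 without Tet2/3 DKO library 2), from 1 to 2 between Tet2/3 DKO populations and from 0 to 1 in the interaction. A lone remaining library there was assumed to vary like the other groups. Over all genes, Treg cells of spleen and pLNs gave 4 to 1696 calls when a library was left out, against 285, and 24 after filterByExpr. Linked genes there went from 0 to 8 calls, against 2. The cause of these shifts was not tested.

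The sign of some differences that were not called depended on the libraries. In mLN Treg cells, Tet2/3 DKO over WT ranged from -0.011 to 0.14 for Srm, from -0.15 to 0.11 for Sms and from -0.20 to 0.074 for Sat1, and in CD4+Foxp3- T cells Sms from -0.12 to 0.0062. Between Tet2/3 DKO mLN populations Srm ranged from -0.085 to 0.21 and Oaz1 from -0.18 to 0.029. The mLN interaction ranged from -0.074 to 0.19 for Sms, from -0.068 to 0.21 for Sat1, from -0.21 to 0.24 for Azin1 and from -0.19 to 0.29 for Smox. In spleen and pLNs Sms in Treg cells ranged from -0.38 to 0.019, and in CD4+Foxp3- T cells Sms from -0.0070 to 0.061 and Oaz1 from -0.26 to 0.18. Between WT populations there Oaz1 ranged from -0.050 to 0.39. Between Tet2/3 DKO populations Srm ranged from -0.13 to 0.19, Sms from -0.15 to 0.24 and Azin1 from -0.53 to 0.056. The interaction ranged from -0.76 to 0.42 for Odc1 and from -0.13 to 0.27 for Sat1.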
